A study of Mus musculus with 78 samples.

Results

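The growth hormone receptor knockout was studied in the livers of male mice of 5 months, over every gene expressed there. The 3 GHRKO and 3 GHRCON livers, 6 of the 78 libraries of the series, were found by the names of their count columns. GHRKO mice carried the receptor knockout, and GHRCON mice were littermates of the same sex and age. Both groups came from the (C57BL6/JxBALB/cByJ)/F2 stock, in which the alleles of both parent strains are mixed, and ate the Purina 5LG6 control diet. The labels give neither the construct of the knockout nor the genotype of the littermates at the receptor. Other libraries serve only for comparison. 3 Snell dwarf and 3 Snell control livers came from males of 5 months of the (PW/JxC3H/HeJ)/F2 stock. 3 female and 3 male control livers of 6 months came from the UM-HET3 stock. All of these were fed that diet. A further 3 female and 3 male control livers, of 12 months, serve for a second list of genes that differ by sex.

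Growth hormone leaves the pituitary and binds its receptor (GHR) on hepatocytes, where the kinase JAK2 activates the transcription factor STAT5b. STAT5b drives the genes for IGF1 and its carrier, and the feedback inhibitors SOCS2 and CISH that switch the signal off again. Male rodents release the hormone in sharp pulses and females more evenly, and this pattern sets most sex differences of the liver. Mice without the receptor are small, have very low circulating IGF1 and live long. The comparison asks which liver genes differ when the receptor is missing.

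The 3 GHRKO libraries held 17084905, 18139689 and 17250913 assigned counts, against 17372928, 18267666 and 16252992 in the GHRCON libraries. The first principal component, 65.6% of the variance of log2 CPM (counts scaled by the size of each library), set all GHRKO apart from all GHRCON libraries. Levels are given below as CPM after TMM scaling, and differences as log2 fold changes of GHRKO over GHRCON ± SE from the edgeR quasi-likelihood fit (n = 3 libraries per group). A gene passed when its p, adjusted by Benjamini and Hochberg's method over all genes tested, was under 0.05. The submitters call the replicates biological, and the p-values measure the spread between these 6 libraries. The hepatocyte markers summed to 146400 to 190000 CPM in GHRKO and 89270 to 108400 CPM in GHRCON livers. Of the 9 tested, 2 rose (22.2%, against 14.8% of all genes), Alb (0.89 ± 0.20) and Ttr (0.85 ± 0.16), and 7 did not pass. Differences were positive for 6 and negative for 3 of the 9, with a median of 0.11 and a lowest value of -0.91. Alb did not pass without GHRKO replicate 1 or without GHRCON replicate 1 (adjusted p up to 0.0664). Bulk tissue cannot tell fewer cells of a type from less RNA per cell.

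Of 12571 genes tested, 1865 differed between GHRKO and GHRCON livers, 14.8%. They were 911 that rose, 7.25% of the genes tested, and 954 that fell, 7.59%, and 695 of them (5.53%) passed with a fold of at least 2. The median log2 fold change of all genes was -0.01. Of all genes, 18.1% had every GHRKO library above every GHRCON library, and 19.8% had every GHRKO library below. Leaving out GHRKO replicate 1, GHRKO replicate 2, GHRCON replicate 1 or GHRCON replicate 2 left 1157, 1089, 1201 and 1073 genes in that order.

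Ghr itself, on chr15:3317760-3583492 (GRCm38), checked the labels. It had 54.7, 74.9 and 81.5 CPM in the GHRKO livers, against 590, 596 and 417 CPM in the GHRCON livers (-2.93 ± 0.20, adjusted p 3.3e-05). Every GHRKO library was far below every GHRCON library, and some Ghr reads remained. A count over the whole gene does not show which exons the remaining reads came from.

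The main hormone targets were far lower in the knockout. Igf1, the growth factor that carries most of the effect of growth hormone on body size (chr10:87858265-87937042), had 8.10, 8.33 and 7.56 CPM in GHRKO livers, against 517, 631 and 448 CPM in GHRCON livers (-6.05 ± 0.18, adjusted p 2.37e-07). Igfals, the acid-labile subunit that keeps IGF1 in the blood, had 5.62, 3.45 and 5.91 CPM in GHRKO livers, against 170, 198 and 126 CPM in GHRCON livers (-5.05 ± 0.26, adjusted p 1.4e-05). The groups lay far apart in both genes, with little spread among the GHRKO livers. An antisense gene, Igf1os, overlaps the start of Igf1 and had 1 count in all GHRKO libraries, against 49 in GHRCON libraries. The strand of counting is not given, so reads of Igf1 and Igf1os cannot be told apart.

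The feedback inhibitors were low in the GHRKO livers and uneven in the controls. Socs2 had 0.736, 0.329 and 0.305 CPM in GHRKO livers, against 2.18, 14.2 and 5.18 CPM in GHRCON livers (-3.99 ± 0.86, adjusted p 0.0313). It did not pass when any of the 3 GHRKO replicates or GHRCON replicate 3 was left out (adjusted p up to 0.12). Cish had 0.468, 0.219 and 0.244 CPM in GHRKO livers, against 0.928, 5.36 and 23.5 CPM in GHRCON livers (-4.99 ± 1.51, adjusted p 0.0952). The Cish groups did not overlap, but the controls differed among themselves and the gene did not pass; it passed without GHRCON replicate 1 (adjusted p 0.018) and without GHRCON replicate 3 (adjusted p 0.0388), and with DESeq2 (adjusted p 0.00069). Cish and Socs2 RNA follow single hormone pulses, which male mice release a few hours apart.

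Jak2 and Stat5b, which carry the signal below the receptor, did not pass the test. Jak2 had 13.8, 17.7 and 14.0 CPM in GHRKO livers and 15.7, 17.8 and 12.8 CPM in GHRCON livers (-0.02 ± 0.17). Stat5b had 51.2, 58.0 and 69.5 CPM in GHRKO livers and 46.3, 44.0 and 46.7 CPM in GHRCON livers (0.38 ± 0.13, adjusted p 0.0765). It passed without GHRKO replicate 1 (adjusted p 0.048). Stat3 (-0.04 ± 0.14), Ptpn11 (-0.38 ± 0.13), Sh2b1 (0.12 ± 0.12), Stat5a (0.54 ± 0.20), Socs3 (-1.03 ± 0.56), Grb10 (-0.63 ± 0.31) and Prlr, the prolactin receptor (-0.20 ± 0.40), did not pass either. Socs1 and Ghrl were too low to test. In all, 15 of the 17 signalling genes were tested, Ghr included, 0 rose and 4 fell (26.7%, against 14.8% of all genes). The 2 falls not yet named were membrane receptors. Egfr, the epidermal growth factor receptor, had 14.4, 11.3 and 13.2 CPM in GHRKO livers, against 472, 696 and 360 CPM in GHRCON livers (-5.30 ± 0.27, adjusted p 1.21e-05). Lifr, the receptor of leukaemia inhibitory factor, had 86.3, 71.1 and 94.0 CPM in GHRKO livers, against 271, 406 and 412 CPM in GHRCON livers (-2.11 ± 0.19, adjusted p 0.00015). Neither pair of groups overlapped, and the Egfr difference was nearly as large as that of Igf1.

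Binding proteins of IGF1 moved apart. Igfbp1, which binds IGF1 in the blood and is induced in fasting, had 196, 105 and 138 CPM in GHRKO livers, against 2.40, 3.66 and 4.28 CPM in GHRCON livers (5.41 ± 0.32, adjusted p 8.65e-05). Igfbp2 had 1612, 735 and 1321 CPM in GHRKO livers, against 220, 484 and 365 CPM in GHRCON livers (1.78 ± 0.38, adjusted p 0.0273). The groups did not overlap, yet Igfbp2 did not pass without GHRKO replicate 1, GHRKO replicate 3 or GHRCON replicate 3 (adjusted p up to 0.0888). Igfbp3, the main partner of IGF1 and Igfals in the circulating complex, had 10.8, 10.4 and 9.51 CPM in GHRKO livers and 18.8, 19.2 and 11.2 CPM in GHRCON livers (-0.68 ± 0.21, adjusted p 0.0528). It passed without GHRCON replicate 3 (adjusted p 0.00607) and with DESeq2 (adjusted p 0.0308). Igfbp4 (0.42 ± 0.16), Igfbp5 (-1.13 ± 0.73), Igfbp6 (0.82 ± 1.02), Igfbp7 (0.18 ± 0.23), Htra1 (-0.56 ± 0.28) and the receptor Igf2r (-0.03 ± 0.18) did not pass, nor did the insulin receptor Insr (adjusted p 0.988). Of the 17 genes of the IGF system, 12 were tested. Igf2, Igf1r, Pappa, Pappa2 and Stc2 were too low to test, the IGF1 receptor among them.

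**Figure D1:**
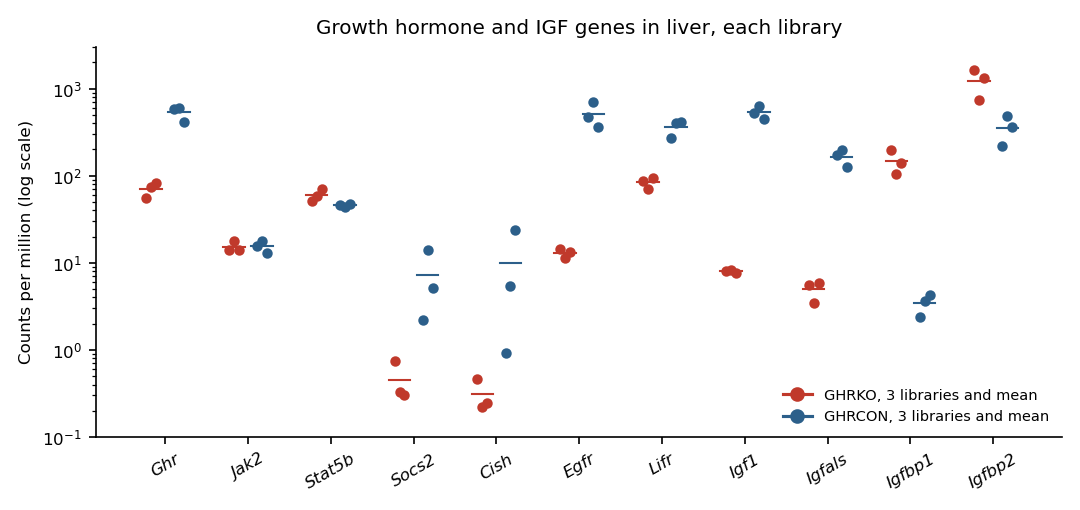
CPM of 11 growth hormone and IGF genes on a log scale, with GHRKO libraries (red) left of GHRCON libraries (blue) and a bar at each mean. Ghr, Socs2, Cish, Egfr, Lifr, Igf1 and Igfals lie below the controls in every library, Igfbp1 and Igfbp2 lie above them, and Jak2 overlaps.

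STAT5 binds the palindrome TTCNNNGAA, which reads the same on both strands. The motif was searched in the 250 bases before each RefSeq gene start (GRCm38.p6). It stood in 7.42% of the 9671 tested genes with such a stretch, in 5.18% of the 695 that rose and in 8.31% of the 746 that fell. The shares of the genes that rose and fell lie on either side of the background, close to it. Named genes that passed and hold the motif are shown with it in capitals, 5′ to 3′ on the gene's strand.
Igfals, 236 bases before a start, chr17:24877594-24877641, plus strand: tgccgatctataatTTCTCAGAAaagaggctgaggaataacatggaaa
Igfals, 58 bases before another start, chr17:24878148-24878206, plus strand: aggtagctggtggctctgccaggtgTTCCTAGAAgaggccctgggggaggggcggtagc
C8a, 228 bases before the start, chr4:104876593-104876648, minus strand: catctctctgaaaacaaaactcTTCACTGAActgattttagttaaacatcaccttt
Agt, 172 bases before the start, chr8:124569845-124569903, minus strand: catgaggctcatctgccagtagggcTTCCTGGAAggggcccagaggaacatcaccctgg
Hamp2, 94 bases before the start, chr7:30924242-30924300, minus strand: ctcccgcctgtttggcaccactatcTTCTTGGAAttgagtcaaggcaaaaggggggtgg
Esr1, 188 bases before a start, chr10:4709945-4710003, plus strand: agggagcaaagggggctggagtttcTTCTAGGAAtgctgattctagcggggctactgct
Wipi1, 158 bases before the start, chr11:109611514-109611572, minus strand: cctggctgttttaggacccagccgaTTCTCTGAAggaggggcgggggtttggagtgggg
Igfals and C8a were far lower in GHRKO livers, Esr1 (-0.94 ± 0.17) and Wipi1 (-1.29 ± 0.16) were lower, and Agt (1.68 ± 0.17) and Hamp2 (8.26 ± 0.60) were higher. The motif thus stood before genes of both directions, and no binding was measured.

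Liver factors that carry the sex pattern downstream of STAT5 changed in part. Of 21 listed regulators 20 were tested, 2 rose and 5 fell (35%, against 14.8% of all genes). Onecut1, also called HNF6, had 0.669, 0.274 and 0.122 CPM in GHRKO livers, against 4.31, 11.2 and 7.32 CPM in GHRCON livers (-4.43 ± 0.55, adjusted p 0.00172). Tox, a nuclear factor that is higher in female than in male liver, had 9.10, 9.32 and 12.1 CPM in GHRKO livers, against 3.11, 3.66 and 2.37 CPM in GHRCON livers (1.74 ± 0.22, adjusted p 0.00121). Nr1i3, the drug sensor CAR, rose (1.06 ± 0.14), and Esr1, the estrogen receptor alpha, fell (-0.94 ± 0.17). All 4 genes had groups that did not overlap. The count of 5 that fell was 2 without GHRKO replicate 1, GHRCON replicate 1 or GHRCON replicate 2, and 3 without GHRKO replicate 2 or GHRKO replicate 3. It was 3 after removal of a trend with gene length and GC content, which is described with the respiratory chain.

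Many genes higher in female liver rose and many genes higher in male liver fell in these knockout males. In control livers of 6 months of another stock, 97 genes were at least 2-fold higher in females and 121 at least 2-fold higher in males. Of the 97 female-biased genes, 38 rose and 1, Acacb, fell in GHRKO livers, 33 were tested without passing and 25 were too low to test. The 38 are 39.2% of the list, where 7.25% of all genes tested rose. Of the 121 male-biased genes, 0 rose and 69 fell, 42 were tested without passing and 10 were too low to test. The 69 are 57% of the list, where 7.59% of all genes tested fell. A gene could be tested through its counts in 1 group alone: 6 tested female-biased genes reached 10 counts in no GHRCON library, and 16 tested male-biased genes reached 10 counts in no GHRKO library. The counts are therefore given over whole lists, and as a description. With lists from controls of 12 months, 47 of 129 female-biased genes rose and 60 of 104 male-biased genes fell. Across the 183 genes of the 6-month lists that were tested, the female-over-male difference and the GHRKO difference had Pearson's r = 0.786 and Spearman's rho = 0.812. The genes tested through 1 group alone are among the 183, and those too low to test are left out. All were picked for a sex difference of at least 2-fold, so genes without one are missing. The axes share no libraries, but the genes are not independent, and these values too are only a description. The sex-biased genes, 183 of the 12571 genes tested, made up 4.17% of the genes that rose and 7.34% of those that fell. Genes of the Y chromosome stood apart: 5 were in the male-biased list and 0 of them passed. The genes on the X chromosome were 4 female-biased ones, all of which rose, and 2 male-biased ones, neither of which passed.

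**Figure D2:**
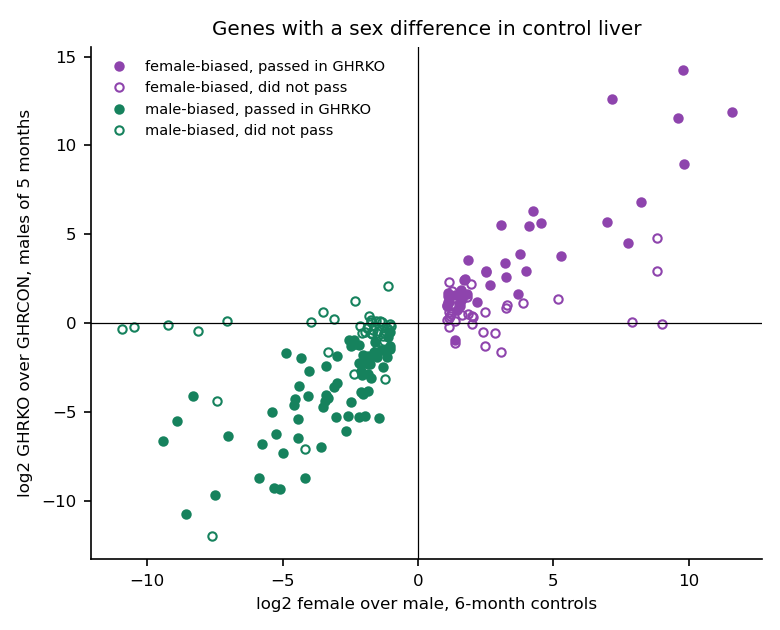
The log2 GHRKO over GHRCON difference of males (vertical) against the log2 female over male difference of 6-month controls (horizontal) for 72 female-biased and 111 male-biased genes, with filled points for genes that passed in GHRKO. Filled points lie in the lower left and upper right except for Acacb, and 24 male-biased genes, the Y-linked ones among them, lie within 0.5 of 0 on the vertical axis.

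Among 24 male-biased liver genes, a list chosen with earlier results of these data known, 22 were tested. Of these 22, 0 rose and 19 fell, where 7.59% of all genes tested fell, and the median was -5.47. Among the 22, 2 reached 10 counts in no GHRKO library, so these counts too are a description. Hsd3b5, a male-specific steroid reductase, had 0, 0.110 and 0.366 CPM in GHRKO livers, against 223, 243 and 406 CPM in GHRCON livers (-10.76 ± 0.58, adjusted p 0.000145). Slco1a1, a transporter of organic anions and steroid conjugates, had 0.602, 1.70 and 1.04 CPM in GHRKO livers, against 435, 561 and 464 CPM in GHRCON livers (-8.74 ± 0.32, adjusted p 1.21e-06). Both had close to no reads in the knockout and were abundant in the controls. Susd4, an inhibitor of complement (-5.41 ± 0.23), and Nudt7, a peroxisomal coenzyme A hydrolase (-2.26 ± 0.15), also fell with no overlap.

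Of a list of 31 female-biased genes, chosen in the same way, 22 were tested. Of these 22, 12 rose and 0 fell, where 7.25% of all genes tested rose, and the median was 2.93. Among the 22, 3 reached 10 counts in no GHRCON library, so the counts over this list are a description. Sult1e1, the estrogen sulfotransferase, had 124, 93.2 and 167 CPM in GHRKO livers, against 0.109, 0.106 and 0.338 CPM in GHRCON livers (9.40 ± 0.39, adjusted p 8.32e-06). Hao2, a peroxisomal hydroxyacid oxidase, had 120, 116 and 108 CPM in GHRKO livers, against 1.20, 1.38 and 0.451 CPM in GHRCON livers (6.81 ± 0.28, adjusted p 1.99e-06). Slc22a27, an organic anion transporter, also rose (5.67 ± 0.22). Sult2a1, Sult2a3 and Sult2a5, bile acid and steroid sulfotransferases, were nearly absent from the controls, while Sult2a8 of the same family is male-biased and fell. Sult2a1 had 927, 623 and 959 CPM in GHRKO livers, against 0, 0.106 and 0 CPM in GHRCON livers, which is 40962 counts in the GHRKO group and 2 in the GHRCON group. The ratio was 22670, with a counting interval of 6276 to 187200. For Sult2a3 the ratio was 7411 (2051 to 61200) and for Sult2a5 it was 4134 (1414 to 20050). These intervals (95%) cover counting error only, and reads of near-identical family members may be split between them.

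The major urinary proteins, pheromone carriers that male mouse liver secretes in large amounts, fell as a group. They took 0.0568%, 0.0401% and 0.0369% of all counts in the GHRKO livers, against 2.52%, 3.39% and 4.6% in the GHRCON livers. Of 22 listed genes 19 were tested, 0 rose and 15 fell, where 7.59% of all genes tested fell. The median of the 19 was -6.50. Among the 19, 2 reached 10 counts in no GHRKO library and could be tested through the controls alone, so these counts are a description. Mup10 had 27.1, 20.3 and 30.2 CPM in GHRKO livers, against 5194, 6538 and 6871 CPM in GHRCON livers (-7.90 ± 0.25, adjusted p 2.58e-07). Mup12 (-11.25 ± 0.76), Mup7 (-9.65 ± 0.79), Mup14 (-8.23 ± 0.48), Mup11 (-7.29 ± 0.56) and Mup1 (-6.16 ± 0.32) also fell. The family members are near-identical, so values of single members are uncertain, while the summed share does not depend on how reads were split among them. Whether reads that match several genes were counted is not given in the sources used here. Mup15 (-7.71 ± 1.47, adjusted p 0.0368) did not pass when any GHRCON replicate, GHRKO replicate 2 or GHRKO replicate 3 was left out (adjusted p up to 0.112).

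Other large changes included a paralog of an iron hormone, secreted proteins and a metal-binding protein. Hamp2, a paralog of the iron hormone hepcidin, had 3051, 2216 and 1565 CPM in GHRKO livers, against 12.2, 6.26 and 3.78 CPM in GHRCON livers (8.26 ± 0.60, adjusted p 0.000716). Spink1, a secreted trypsin inhibitor, had 20.3, 24.1 and 18.8 CPM in GHRKO livers, against 0, 0.212 and 0 CPM in GHRCON livers (8.04 ± 0.48). Chil1, a chitinase-like protein, had a ratio of 284.8 (counting interval 97.11 to 1384) and Lrtm2 one of 243 (66.86 to 2013). Cyp2b13, a female-biased cytochrome P450, rose (8.96 ± 1.21, adjusted p 0.0132) but not without GHRKO replicate 2 or GHRCON replicate 2 (adjusted p up to 0.0528). Mt2, a metal-binding metallothionein, had 35.5, 247 and 40.4 CPM in GHRKO livers, against 0.983, 1.01 and 1.58 CPM in GHRCON livers (6.50 ± 1.23, adjusted p 0.0357). Replicate 2 stood above the other GHRKO livers, and Mt2 did not pass when any GHRCON replicate was left out (adjusted p up to 0.138). Among the falls, Wfdc21, a small secreted protein, had 0.335, 1.04 and 0.853 CPM in GHRKO livers, against 317, 357 and 411 CPM in GHRCON livers (-8.88 ± 0.30, adjusted p 7.09e-07). Sult5a1 also fell (-8.41 ± 0.36). Slc22a28, which is male-biased in the controls of 6 months, was lower by a ratio of 854.6 (153 to 33790).

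Some acute phase and complement genes fell, C6, C8a, C8b and C9 of the terminal complement complex among them. C8a, a subunit of the membrane attack complex, had 12.9, 5.15 and 15.8 CPM in GHRKO livers, against 698, 764 and 805 CPM in GHRCON livers (-6.07 ± 0.45, adjusted p 0.000543). C8b, its partner, fell by 4.01 ± 0.19. C6 (-4.63 ± 0.26) and C9 (-2.23 ± 0.18), which join the same complex, fell as well, and no library of these 4 genes overlapped between the groups. C7, another member of the complex, did not pass (-0.57), and C5 was not analysed here. These genes were picked out of the longer list for their shared complex. Of 35 listed acute phase and complement genes 34 were tested, 2 rose and 14 fell (47.1%, against 14.8% of all genes). Their median was -0.54. The 14 were 9 without GHRKO replicate 2 and 7 without GHRCON replicate 2. C6, C8a, C8b and C9 are all 4 male-biased in the controls of 6 months as well.

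Most chaperones of the endoplasmic reticulum, which fold secreted proteins, fell in the knockout. Of 21 tested, 0 rose and 14 fell (66.7%, against 14.8% of all genes), with a median of -0.68. Ero1lb, an oxidase that feeds disulfide bonds, had 16.4, 21.5 and 21.5 CPM in GHRKO livers, against 56.7, 69.0 and 64.0 CPM in GHRCON livers (-1.67 ± 0.14, adjusted p 0.000131). Xbp1, which switches on folding genes when misfolded proteins build up, had 120, 120 and 127 CPM in GHRKO livers, against 229, 232 and 235 CPM in GHRCON livers (-0.92 ± 0.11, adjusted p 0.000703). Both sets of libraries were tight and did not overlap. Hyou1 (-1.19 ± 0.17) and Dnajb11 (-0.88 ± 0.14), cofactors of the chaperone BiP, fell too. After removal of the length and GC trend 15 of the 21 fell, with a median of -0.66. Cytosolic heat shock proteins were less uniform, with 1 of 17 up and 3 down (23.5%). Those 3 falls were 0 without GHRKO replicate 2, GHRKO replicate 3 or GHRCON replicate 2, and 1 without GHRKO replicate 1.

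The nuclear genes of the respiratory chain rose by a small amount and in large number. Of 76 tested, 67 rose and 0 fell (88.2%, against 14.8% of all genes). The median was 0.58, with a range of 0.20 to 0.91. In 74 of the 76 every GHRKO library was above every GHRCON library, against 18.1% of all genes. Ndufa5, a subunit of complex I, had 87.9, 76.9 and 67.2 CPM in GHRKO livers, against 40.5, 41.2 and 41.6 CPM in GHRCON livers (0.91 ± 0.12, adjusted p 0.00166). Atp5h, a subunit of ATP synthase, had 242, 241 and 221 CPM in GHRKO livers, against 128, 130 and 153 CPM in GHRCON livers (0.77 ± 0.12, adjusted p 0.00363). Ndufc1 (0.80 ± 0.13) and Ndufb8 (0.67 ± 0.11), both of complex I, rose as well. The rise was spread over the complexes, with 33 of 37 genes of complex I, 3 of 4 of complex II, 8 of 9 of complex III, 10 of 10 of complex IV and 13 of 15 of complex V, and medians of 0.56 to 0.60. The 13 protein genes of the mitochondrial genome, a set chosen after values were seen, had 1 rise and a median of 0.12.

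Gene length moved with the differences in these libraries. Genes were cut into 4 equal groups by exon length. Among the 3131 shortest the median log2 fold change was 0.21 and 14.4% rose, and among the 3127 longest it was -0.21 and 2.43% rose. Respiratory chain genes are short. When a smooth trend with exon length and GC content was removed from each library, an alternative chosen after the data were seen, 51 of the 76 respiratory chain genes rose, with a median of 0.45. Of the ribosomal protein genes, which are short too, 1 of 78 rose and 0 fell with a median of 0.14, and with the trend removed the median was -0.01. The part of the length trend in the respiratory chain result was not otherwise tested. The 67 genes were 38 without GHRCON replicate 1 and 32 without GHRCON replicate 2.

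**Figure D3:**
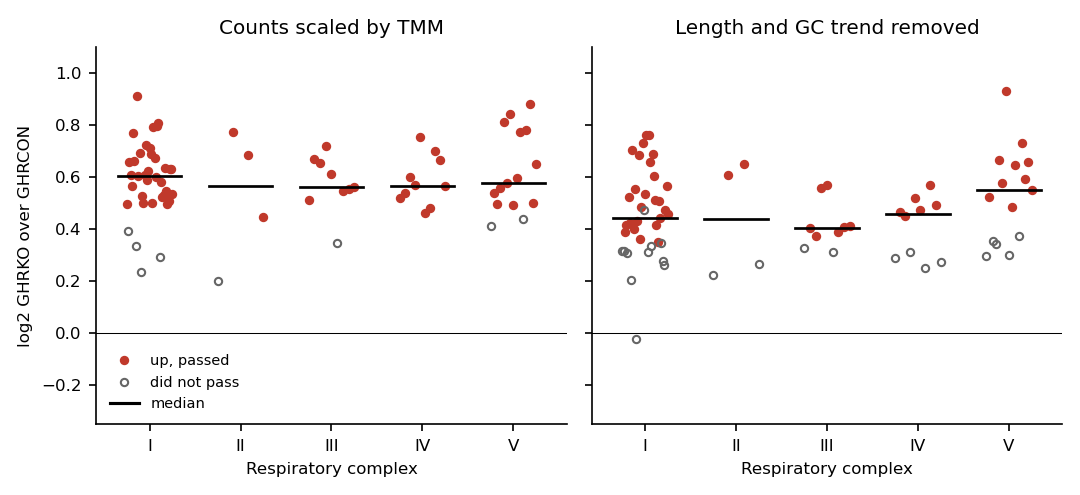
The log2 GHRKO over GHRCON difference of 75 nuclear respiratory chain genes by complex, with filled points for those that passed and a bar at each median, in the TMM-scaled fit (left) and with the length and GC trend removed (right). The medians by complex are 0.56 to 0.60 on the left and are lower on the right, where more points did not pass.

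Some genes of the mitochondrial fuel pathways rose as well. Of 33 listed genes of fatty acid oxidation and ketogenesis 32 were tested, 12 rose and 1 fell (40.6%, against 14.8% of all genes). Their median was 0.42. Hadh, which oxidises short-chain acyl groups, had 633, 537 and 551 CPM in GHRKO livers, against 318, 294 and 286 CPM in GHRCON livers (0.94 ± 0.13, adjusted p 0.00165). Acadm, the medium-chain dehydrogenase, rose too (0.79 ± 0.11). Acsl1, which activates long-chain fatty acids, fell (-0.99 ± 0.18). The 12 that rose were 7 without GHRKO replicate 2. In the citric acid cycle 7 of 18 rose and 0 fell (38.9%), led by Idh2 (1.48 ± 0.21) and Suclg1 (0.67 ± 0.13). Those 7 were 4 without GHRKO replicate 1 or GHRCON replicate 2, and 3 without GHRCON replicate 1.

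Some genes of fat uptake rose, and some genes of fat synthesis passed in either direction. Of 24 listed genes of lipid droplets and uptake 22 were tested, 7 rose and 1 fell (36.4%, against 14.8% of all genes). Lpl, lipoprotein lipase, had 30.2, 54.3 and 35.7 CPM in GHRKO livers, against 9.77, 11.6 and 10.2 CPM in GHRCON livers (1.93 ± 0.21, adjusted p 0.000722). Mogat1, a monoacylglycerol acyltransferase (3.43 ± 0.36), Pparg, the fat cell regulator PPARγ (1.45 ± 0.20), and Lipe, hormone-sensitive lipase (0.85 ± 0.14), rose without overlap. Vldlr, the receptor of very low density lipoprotein, had 34.2, 32.8 and 49.7 CPM in GHRKO livers, against 3.33, 3.72 and 0.620 CPM in GHRCON livers (3.92 ± 0.55, adjusted p 0.00938). Of 20 lipogenic genes tested 1 rose and 3 fell (20%, against 14.8% of all genes), with a median of -0.15. Mlxipl, which encodes the glucose sensor ChREBP (-0.78 ± 0.12), and Acacb, an acetyl-CoA carboxylase (-0.94 ± 0.16), fell, and Dgat1, which makes triglyceride, rose (0.62 ± 0.12). Without GHRCON replicate 3 the lipogenic falls were 5.

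Methionine and amino acid metabolism rose in part. Of 23 genes of the methionine cycle and transsulfuration 22 were tested, 10 rose and 1 fell (50%, against 14.8% of all genes). Their median was 0.42. Cth, which makes cysteine, had 1175, 1230 and 1073 CPM in GHRKO livers, against 429, 436 and 331 CPM in GHRCON livers (1.54 ± 0.15, adjusted p 0.000316). Nnmt, which methylates nicotinamide (1.60 ± 0.14), and Sardh, the sarcosine dehydrogenase (1.15 ± 0.15), rose. Nnmt did not pass in the fit of 12 libraries with the Snell groups (1.59, adjusted p 0.234). Csad, on the way to taurine, had 8.83, 8.22 and 8.29 CPM in GHRKO livers, against 58.3, 132 and 141 CPM in GHRCON livers (-3.71 ± 0.36, adjusted p 0.00169). The 10 that rose were 8 to 10 when any replicate was left out. Of 28 genes of the urea cycle and amino acid breakdown 10 rose and 0 fell (35.7%). Among the 10 were Oat (0.97 ± 0.17), Hpd (0.99 ± 0.19), Hal (0.87 ± 0.16) and Bckdhb (0.92 ± 0.17). Those 10 were 5 without GHRKO replicate 1, GHRCON replicate 2 or GHRCON replicate 3, 6 without GHRKO replicate 2 or GHRKO replicate 3, and 6 with the length and GC trend removed.

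Sugar handling and drug metabolism changed with a few large members. Of 22 genes of glycolysis and glycogen 10 rose and 2 fell (54.5%, against 14.8% of all genes). Ppp1r3g, which targets a phosphatase to glycogen, had 4.28, 4.55 and 5.00 CPM in GHRKO livers, against 0.491, 0.531 and 0.620 CPM in GHRCON livers (3.06 ± 0.27, adjusted p 0.000144). Khk, which phosphorylates fructose (0.94 ± 0.13), and Ugp2, which makes the sugar donor of glycogen (0.88 ± 0.13), rose. The 10 were 4 without GHRKO replicate 2 and 6 without GHRCON replicate 2, and the 2 falls were 0 without GHRKO replicate 1 and 1 without GHRKO replicate 3 or GHRCON replicate 1 or 2. Of 24 genes of drug and steroid metabolism 9 rose and 1 fell (41.7%). Cyp2a5, a cytochrome P450, had 11026, 7444 and 7703 CPM in GHRKO livers, against 1936, 1244 and 845 CPM in GHRCON livers (2.70 ± 0.32, adjusted p 0.00129). Sult1a1 (1.25 ± 0.15) and Sult1d1 (1.26 ± 0.15) rose, and Sult2a8 fell (-1.89 ± 0.20). The 9 were 5 without GHRKO replicate 1. In bile acid synthesis and transport 6 of 22 rose and 5 fell (50%). Cyp7b1, the oxysterol hydroxylase of male liver, had 24.6, 25.4 and 30.8 CPM in GHRKO livers, against 386, 288 and 701 CPM in GHRCON livers (-4.09 ± 0.36, adjusted p 0.000909), and the efflux pump Abcc4 rose (2.93 ± 0.26). The 6 were 3 without GHRKO replicate 1 or GHRKO replicate 3, and the 5 were 2 or 3 without GHRKO replicate 1, 2 or 3 or GHRCON replicate 1 or 2.

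Secreted hormones and carriers changed in both directions. Of 26 secreted factors 23 were tested, 7 rose and 3 fell (43.5%, against 14.8% of all genes), Igf1 among the falls. Agt, angiotensinogen, had 1236, 1113 and 1165 CPM in GHRKO livers, against 324, 320 and 456 CPM in GHRCON livers (1.68 ± 0.17, adjusted p 0.000341). Serpina6, the corticosteroid-binding globulin, had 2216, 1428 and 2128 CPM in GHRKO livers, against 459, 446 and 276 CPM in GHRCON livers (2.29 ± 0.25, adjusted p 0.000579). Of 18 glucocorticoid targets 6 rose and 1 fell (38.9%), with Hsd11b1, which regenerates active glucocorticoid, at 0.88 ± 0.13. Without GHRCON replicate 1 or GHRCON replicate 2 those 6 were 3, and without GHRKO replicate 1 the 7 secreted factors were 4. The share that passed was 5.56% of the clock genes and 11.5% of the insulin signalling genes, against 14.8% of all genes. Of 18 clock genes 1 fell, Bhlhe41 (-2.35 ± 0.37). Of 31 proteasome genes 0 rose and 0 fell, with a median of 0.12 by edgeR; 4 passed at an unadjusted p under 0.05 and 0 with DESeq2. Of 26 insulin signalling genes 0 rose and 3 fell (Pik3r1 -0.62 ± 0.12, Deptor -0.79 ± 0.18 and Grb14 -0.61 ± 0.15), and the 3 were 1 without GHRKO replicate 1 or GHRKO replicate 2. Pik3r1 did not pass in the fit of 12 libraries with the Snell groups (adjusted p 0.0513). Deptor did not pass without GHRKO replicate 1 or 2 or GHRCON replicate 1 or 2 (adjusted p up to 0.0774), and Grb14 without any GHRKO replicate or GHRCON replicate 3 (adjusted p up to 0.089).

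**Figure D4:**
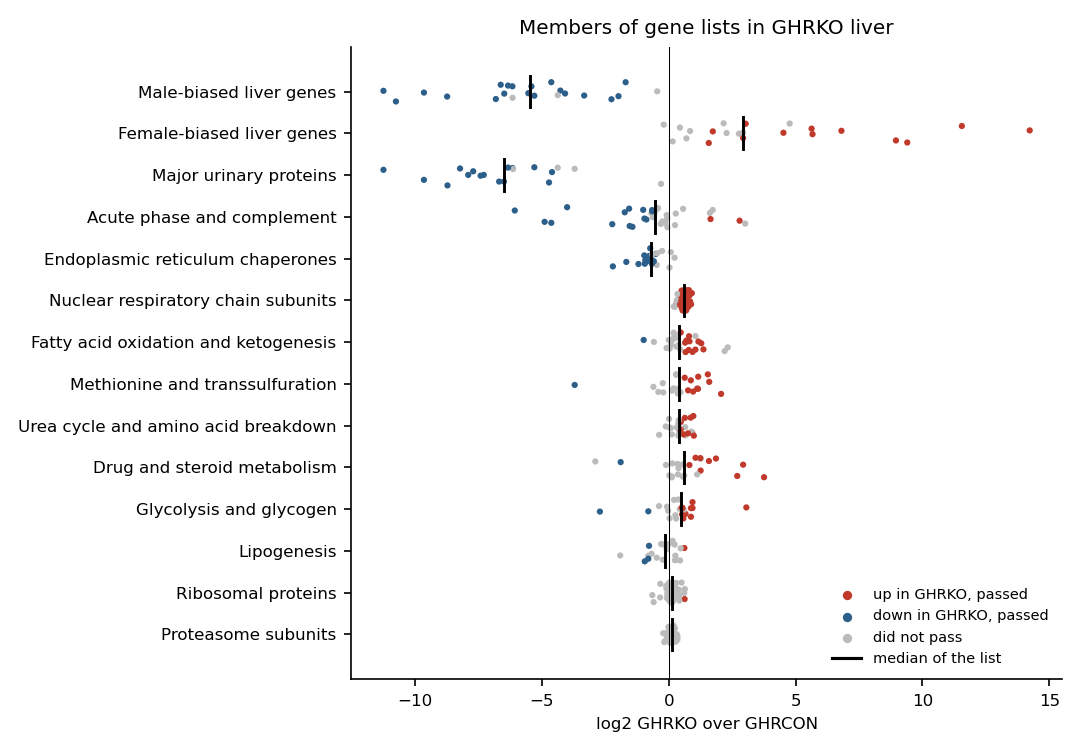
The log2 GHRKO over GHRCON difference of each tested member of 14 gene lists, in red where it rose and blue where it fell past the threshold, with a black bar at the median of each list. Male-biased genes and major urinary proteins spread to the left with medians of -5.47 and -6.50, female-biased genes to the right with 2.93, and ribosomal and proteasome genes stay near 0.

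Markers of other cells were checked beside these lists. All 12 markers of Kupffer cells and macrophages had a positive difference, with a median of 0.87, as did 6194 of all 12571 genes tested. They summed to 365 to 669 CPM in GHRKO and 206 to 359 CPM in GHRCON livers. Of the 12, 4 rose (33.3%, against 14.8% of all genes that passed). They were C1qa (1.09 ± 0.27), C1qb (1.11 ± 0.24), C1qc (0.99 ± 0.22) and Cd68 (0.93 ± 0.24). These 4 were 0 without GHRKO replicate 2 or GHRCON replicate 1, 7 without GHRKO replicate 3, and 2 without GHRKO replicate 1, GHRCON replicate 2 or GHRCON replicate 3. Of the sinusoidal endothelial markers 1 of 12 rose (8.33%), Gpihbp1 (0.72 ± 0.13). By edgeR 0 of 13 stellate, 0 of 9 cholangiocyte and 0 of 6 lymphocyte markers passed. At an unadjusted p under 0.05 these were 5 stellate, 2 cholangiocyte and 3 lymphocyte markers, and with DESeq2 they were 3, 0 and 1 in that order. Kidney markers summed to at most 0.183 CPM in GHRKO and 0.789 CPM in GHRCON livers. Pancreas markers summed to 9.99 to 12.2 CPM in GHRKO and 21.3 to 41.1 CPM in GHRCON livers; 4 of the 10 had no count in any of the 6 libraries, and Cela1 made up nearly all of the sum (-1.69 ± 0.25). Skeletal muscle markers reached 318 counts in GHRKO replicate 1 and 8 and 9 in the other GHRKO libraries, against 12 to 18 in the GHRCON libraries. The part of these cells in the changes above was not tested.

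The Snell dwarf lacks the hormone rather than its receptor. Its pituitary makes no growth hormone, prolactin or thyrotropin, so it lacks the thyroid signal as well, and its receptor gene is intact. Against Snell controls, 1170 genes rose (9.34%) and 1350 fell (10.8%) in Snell dwarf livers. Of 12234 genes tested in both, 448 rose in both models, 50.7% of those that rose in GHRKO and 40.4% of those that rose in Snell dwarf livers. Falls were shared by 557 genes, 59.5% of those that fell in GHRKO and 42.2% of those in Snell dwarf livers, and 9 genes passed in opposite directions. The 2 comparisons share no library, and across genes Pearson's r was 0.761 and Spearman's rho 0.619.

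The difference between the models was tested in 1 fit of 12 libraries, where the effect of GHRKO minus that of Snell dwarf passed for 152 of 13105 genes, 1.16%. The GHRKO effect was higher for 97 genes (0.74%) and lower for 55 (0.42%). Without GHRKO replicate 2, GHRCON replicate 2, Snell control replicate 1 or Snell control replicate 2 these were 72, 89, 70 and 85 genes in that order. Without Snell dwarf replicate 1, which alone held many counts of skeletal muscle markers (6797), they were 97. Strain differs with the model throughout and cannot be told apart from it. CPM and fold changes in these sentences come from that fit. Dio1, which activates thyroid hormone and is itself induced by it, had 60.0, 71.1 and 43.0 CPM in GHRKO livers and 66.4, 66.5 and 13.4 CPM in GHRCON livers. It had 0.387, 1.28 and 0.283 CPM in Snell dwarf livers, against 177, 96.9 and 109 CPM in Snell control livers, and the effects differed by 7.90 ± 0.99 (adjusted p 0.00857). The GHRKO and GHRCON libraries thus overlapped while the Snell groups lay far apart. Thrsp, a lipogenic target of thyroid hormone, had effects of 0.47 ± 0.52 in GHRKO and -3.86 ± 0.59 in Snell dwarf livers (difference 4.34 ± 0.77, adjusted p 0.0333), and this held without GHRKO replicate 1, GHRCON replicate 1 or Snell dwarf replicate 2, but was lost when any other library was left out (adjusted p up to 0.102). Elovl3, a fatty acid elongase of male liver, fell in both, with effects of -4.27 ± 0.53 in GHRKO and -10.71 ± 0.78 in Snell dwarf livers (difference 6.44 ± 0.98, adjusted p 0.017); this did not pass without Snell dwarf replicate 1 (adjusted p 0.0626).

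Cyp17a1, a steroid hydroxylase that is female-biased in mouse liver, separated the models with no call lost under any replicate left out. It had 86.9, 136 and 160 CPM in GHRKO livers, against 2.82, 3.10 and 1.75 CPM in GHRCON livers. In Snell dwarf livers it had 12.2, 16.5 and 8.71 CPM, against 5.63, 11.1 and 3.88 CPM in Snell control livers (difference 4.78 ± 0.59, adjusted p 0.00482). Mup1 had effects of -6.16 ± 0.27 in GHRKO and -10.55 ± 0.34 in Snell dwarf livers (difference 4.39 ± 0.36, adjusted p 5.57e-05). Of 19 urinary protein genes, 4 had a higher effect in GHRKO and 0 a lower one. Susd4 fell further in GHRKO (-5.41 ± 0.26) than in Snell dwarf livers (-1.98 ± 0.20; difference -3.43 ± 0.32, adjusted p 0.000173). Lpl rose by 1.93 ± 0.31 in GHRKO and by 4.36 ± 0.34 in Snell dwarf livers (difference -2.43 ± 0.43, adjusted p 0.024), which did not pass without GHRKO replicate 1 or 3, any GHRCON replicate, or Snell control replicate 1 (adjusted p up to 0.0725). Of 21 lipogenic genes 5 had a higher effect in GHRKO and 0 a lower one, and of 13 thyroid hormone targets 3 were higher and 0 lower. For the chaperones of the endoplasmic reticulum and the respiratory chain 0 differences passed by edgeR. At an unadjusted p under 0.05 these were 3 chaperones and 12 respiratory genes, and with DESeq2 0 chaperones and 1 respiratory gene. The medians were -0.68 in GHRKO and -0.73 in Snell dwarf livers for the first, and 0.58 in GHRKO and 0.38 in Snell dwarf livers for the second.

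**Figure D5:**
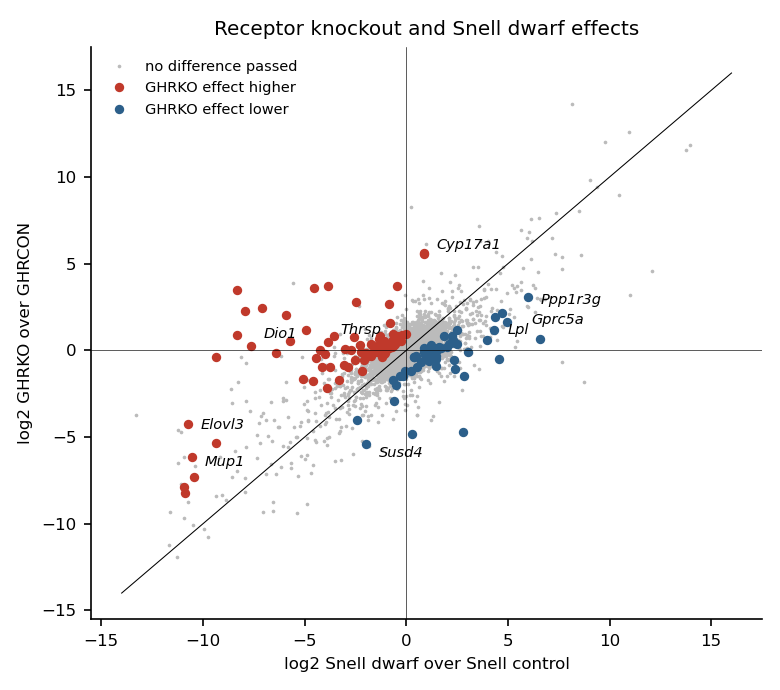
The log2 effect of GHRKO over GHRCON (vertical) against that of Snell dwarf over Snell control (horizontal) for 13105 genes, with the 97 genes whose GHRKO effect was higher in red, the 55 whose effect was lower in blue and a line of equal effects. Most genes lie along the line, and Dio1, Elovl3 and Cyp17a1 lie far above it.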

How the data were processed

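Livers of 78 mice had been sequenced from TruSeq v2 poly(A) libraries, per the labels' protocols. The authors deposited raw read counts per gene, 43629 genes in 78 columns, each matched to 1 sample. Per the submitters' processing notes, reads passed through bcl2fastq 1.8.4, Trimmomatic 0.32, STAR 2.5.2b (GRCm38, mm10) and featureCounts 1.5. The strand of counting is not given in the sources used here. Libraries held 15521588 to 37778510 counts.

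Counts of GHRKO and GHRCON libraries were fitted alone in R 4.3.3 with edgeR 4.0.16. filterByExpr (minimum count 10) kept 12571 genes, TMM set the scale, and a robust quasi-likelihood F test was adjusted by Benjamini-Hochberg. SEs came from the F statistic. Differences from the Snell dwarf were interaction terms in a fit of 12 libraries. Where a group had 1 to 3 counts in all, ratios with exact counting intervals (95%) replace fitted folds. Motifs were searched in RefSeq promoters matched by symbol, and coordinates of genes are those of the GRCm38 annotation. The main edgeR and DESeq2 fits for GHRKO, the difference from the Snell dwarf and sex were tested on simulated counts. The motif search, counting intervals, list counts and trend removal were not.

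The members and the 49 gene lists (992 symbols, 987 matched) were chosen with earlier results of these data known, so no list was tested as a whole. Genes are named if they are among the 12 largest changes per direction that passed, averaged 2 or more in log2 CPM and had groups without overlap, leaving out predicted names. They are also named if they belong to the growth hormone or IGF lists, are among the 4 smallest adjusted p of a list, or are among the 5 largest differences per direction from the Snell dwarf. A few genes chosen this way are left out of the text. Other genes named were chosen after their values were seen: Igf1os, Tars, 4930556M19Rik and 6030458C11Rik. C5 and C7 are named for the complex they share with C6. Alternatives were RLE size factors, all genes unfiltered, a replicate block, the fit of 12 libraries, DESeq2 1.42.0, a 2-fold rule, lists from 12-month controls, a 4-fold sex difference, and leaving out each library. The removal of a spline trend on exon length and GC content, which 99.52% of genes had, was added after seeing the data.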

Additional observations from a re-analysis of the deposited data

How the results depend on the processing

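The 1865 genes changed in GHRKO livers were 1625 to 2296 with RLE scaling, without the filter, in the fit of 12 libraries, with DESeq2 and with a replicate block, and 1647 with the length and GC trend removed, where 1394 of the 1865 kept their call. A 2-fold rule left 695. Leaving out each replicate gave 1073 to 1700. The 152 genes that differed from the Snell dwarf were 377 with DESeq2, 110 with a replicate block and 70 to 174 with a replicate left out, the lowest without Snell control replicate 1; skeletal muscle markers held at most 318 counts in the libraries other than Snell dwarf replicate 1. Deviations of same-numbered libraries had correlations of -0.0379, -0.00658 and 0.00212, so no pairing by replicate number was seen. Pairing of the mice by litter in another order was not tested. The block gave 1625 changed genes. Among the genes named, with the adjusted p of each in parentheses from here on, Vldlr (0.0891), Cyp2b13 (0.068), Mt2 (0.0708), Mup15 (0.187), Socs2 (0.0514) and Igfbp2 (0.141) did not pass with the block, and Stat5a (0.046), Igfbp3 (0.0446) and Igfbp5 (0.0313) passed; the difference of Thrsp from the Snell dwarf (0.155) did not. The 69 male-biased genes that fell were 61 to 70 with a replicate left out, and the 38 female-biased genes that rose were 30 to 42; at a 4-fold sex difference they were 48 and 22. Igfbp4 passed with DESeq2 (adjusted p 0.0368), and Socs2, Igfbp2, Mt2 and Mup15 did not pass without the filter, nor did C1qa (0.0773) and the Snell differences of Thrsp (0.0658) and Lpl (0.0555), while Igfbp3 did (0.00974). With the length and GC trend removed Grb14 (0.116) and Cd68 (0.0701) did not pass and Igfbp3 did (0.0333). No named gene that passed in the main fit turned its direction under these settings. Named genes with a difference near 0, such as Jak2, are not covered by this. Depth limits genes below the filter, Igf1r and Igf2 among them. The cause of the changes between settings was not tested.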

Other observations

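Some members of gene groups outside the main account also passed in the GHRKO livers. Of 21 apolipoproteins and lipoprotein enzymes 7 rose and 1 fell (38.1%, against 14.8% of all genes). Apoc1, an inhibitor of lipoprotein clearance, had 7349, 5258 and 4882 CPM in GHRKO livers against 2984, 2896 and 2553 CPM in GHRCON livers (1.05 ± 0.19, adjusted p 0.00658 by edgeR). Apoc2, the cofactor of lipoprotein lipase (0.85 ± 0.15), and Scarb1, the receptor of high density lipoprotein (0.78 ± 0.15), rose as well. The 7 were 3 without GHRKO replicate 1 and 4 without GHRKO replicate 2 or GHRCON replicate 2. Of 27 genes of autophagy and the lysosome 7 rose and 1 fell (29.6%). Hexa, a hexosaminidase subunit, rose (1.15 ± 0.12), and Wipi1, a protein of early autophagosomes, fell (-1.29 ± 0.16). Those 7 were 4 without GHRKO replicate 1 and 2 without GHRCON replicate 1. Of 24 tested NRF2 and glutathione genes 5 rose and 3 fell (33.3%). The glutathione transferase Gsta4 rose (1.29 ± 0.21) and the oxidase Aox1 fell (-1.07 ± 0.21). The 5 were 2 without GHRKO replicate 1, GHRKO replicate 2 or GHRCON replicate 2, and 2 with the length and GC trend removed. The 3 falls were 0 without GHRKO replicate 2 and 1 without GHRCON replicate 2. Aox1 did not pass without GHRKO replicate 2 (adjusted p 0.0561) or in the fit of 12 libraries with the Snell groups (adjusted p 0.0741).

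Imprinted growth genes were at low levels and moved in both directions. Cdkn1c, a maternally expressed inhibitor of the cell cycle, had 5.15, 5.37 and 3.78 CPM in GHRKO livers, against 0.710, 1.43 and 0.789 CPM in GHRCON livers (2.27 ± 0.32, adjusted p 0.00204). H19, a long noncoding RNA of fetal liver, rose (3.22 ± 0.53) and Meg3, another maternally expressed noncoding RNA, fell (-3.53 ± 0.54). H19 did not pass in the fit of 12 libraries with the Snell groups (3.21, adjusted p 0.0954). Of 13 such genes tested 2 rose and 1 fell (23.1%, against 14.8% of all genes). Among interferon response genes 3 of 28 rose and 3 fell (21.4%), so the list did not move one way. Usp18 (1.73 ± 0.26) and Gbp2 (1.97 ± 0.29) were higher and Iigp1 (-1.68 ± 0.23) was lower. Without GHRCON replicate 2 the 3 rises were 5.

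Genes near the receptor locus were called more often than others. Within 10 megabases of Ghr on chromosome 15, 29.8% of 47 tested genes passed, 3 up and 11 down, against 19.1% of the 444 other tested genes of that chromosome and 14.8% of all genes. C6 (-4.63 ± 0.26), C9 (-2.23 ± 0.18), Lifr (-2.11 ± 0.19) and Tars (-1.25 ± 0.14), among those that fell most, also fell in Snell dwarf livers, which have an intact receptor gene, with effects of -4.58 for C6, -3.63 for C9, -2.28 for Lifr and -1.51 for Tars. Others did not pass there: 4930556M19Rik averaged 1.16 CPM in GHRKO and 4.68 CPM in GHRCON livers, and had an effect of -0.50 in Snell dwarf livers (adjusted p 0.0969), and 6030458C11Rik had -1.21 in GHRKO, against 0.26 in Snell dwarf livers (adjusted p 0.102). These genes were chosen after their values were seen. The parental origin of the chromosome around the knockout allele is not in the labels, and its part in these values was not tested.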
